A study of Mus musculus with 6 samples.

Results

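Nfe2l2, Keap1, Nqo1, Gclc, Gclm, Hmox1, Srxn1 and Txnrd1, which encode the transcription factor NRF2, its inhibitor KEAP1 and 6 antioxidant enzymes or enzyme subunits induced through NRF2, were followed in mouse liver with and without the acyl-CoA binding protein ACBP. The members were every probe set whose platform annotation names 1 of these 8 genes, which gave 17 of the 45101 probe sets on each array. Livers came from fed mice aged 21 days, of strain C57BL/6JBomTac, that were ACBP-/- (knockout) or wild type. RNA of 5 mice was pooled in equal amounts into each sample, and 15 mice of either genotype made up 3 knockout and 3 wild-type pools, 1 array each, with no mouse in more than 1 pool. The sources used here do not state how the ACBP allele was made or the sex of the mice in each pool. Since whole liver was used, a change in the number of cells of a type and a change in RNA per cell cannot be told apart.

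NRF2 is a basic leucine zipper factor that pairs with small MAF proteins and binds antioxidant response elements in its target genes. In unstressed cells KEAP1 holds NRF2 in a ubiquitin ligase complex with CUL3 and it is degraded. Electrophiles and oxidants modify cysteines of KEAP1, NRF2 then escapes, and transcription of enzymes for glutathione synthesis, thiol reduction, quinone reduction and haem breakdown goes up. The liver, which meets many electrophiles, is a tissue in which this response is well known. Because NRF2 is set largely by protein stability, its messenger RNA gives only part of its control.

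Promoter sequence upstream of the start site is shown for 4 of the genes, because it holds or lacks the letters of the antioxidant response element that links the targets to NRF2. Gclm is shown as the member with a called probe set, Nfe2l2 as the factor itself, Srxn1 as the member with 2 matches and Nqo1 as one with none. Capitals mark TGACNNNGC or TGAGNNNGC on either strand, and each line runs 5′ to 3′ on the strand of the gene. The sequences are the 250 bases before a RefSeq start in GRCm38.p6.
Gclm, chr3:122245307-122245556, plus strand: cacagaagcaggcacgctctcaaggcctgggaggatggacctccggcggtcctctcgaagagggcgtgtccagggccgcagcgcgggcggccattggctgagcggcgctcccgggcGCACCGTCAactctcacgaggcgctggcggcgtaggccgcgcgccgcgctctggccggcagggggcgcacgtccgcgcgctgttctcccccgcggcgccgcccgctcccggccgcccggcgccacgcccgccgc
Nfe2l2, chr2:75704664-75704913, minus strand: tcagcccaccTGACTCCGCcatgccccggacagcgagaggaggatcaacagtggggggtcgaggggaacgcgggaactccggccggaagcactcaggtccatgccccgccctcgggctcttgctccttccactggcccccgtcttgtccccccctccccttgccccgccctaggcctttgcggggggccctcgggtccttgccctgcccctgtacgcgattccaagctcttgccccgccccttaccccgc
Srxn1, chr2:152105274-152105523, plus strand: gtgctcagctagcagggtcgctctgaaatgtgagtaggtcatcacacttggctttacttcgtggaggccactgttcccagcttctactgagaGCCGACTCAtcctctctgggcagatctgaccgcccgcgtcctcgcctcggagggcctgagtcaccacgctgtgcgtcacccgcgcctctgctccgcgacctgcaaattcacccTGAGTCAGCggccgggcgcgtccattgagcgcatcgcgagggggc
Nqo1, chr8:107403206-107403455, minus strand: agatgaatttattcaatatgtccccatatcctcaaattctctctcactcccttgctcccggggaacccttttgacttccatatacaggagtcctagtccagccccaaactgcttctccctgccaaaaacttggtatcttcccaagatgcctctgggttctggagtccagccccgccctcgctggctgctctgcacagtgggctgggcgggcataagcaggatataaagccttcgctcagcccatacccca

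RefSeq promoter windows were found for 6 of the 8 genes, in 8 windows of which Txnrd1 has 3, and 4 genes had a match in 1 window each. The match of Gclm begins 134 bases before the start site, that of Nfe2l2 240 bases and those of Srxn1 158 and 45 bases before it, and 1 window of Txnrd1 has a match that begins 92 bases before its start. The nearer match in Srxn1 reads TGAGTCAGC, a form held by 0.347% of the 32851 promoter windows in the table. A form with every letter fixed is rarer than the general forms whichever gene holds it. The letters of the other matches were not counted in this way, so the share does not set Srxn1 apart from them. Either general form is held by 23.0% of the windows, TGACNNNGC by 10.2% and TGAGNNNGC by 14.4%, so a single match of this kind is common. No match in these windows says only that the letters are not there, as in Nqo1 and Keap1.

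The arrays carry signals as log2 values of the MAS5 algorithm, with a detection call of Present, Marginal or Absent for each probe set. Dbi, which encodes ACBP, checks the labels: its brightest probe set read 5.37, 5.32 and 5.15 in the knockout pools, against 15.94, 15.74 and 15.77 in the wild-type pools. Between 48.4% and 51.1% of probe sets were called Present per array, highest in knockout pool 1 and lowest in knockout pool 3. Sex-linked signals also differed between pools. The brighter probe set of Eif2s3y, a Y-linked gene, was called Absent in knockout pool 1 and Present in the 5 other pools, while the dimmer one was Absent in all 6. The brightest Xist probe set read 11.14, 10.03 and 9.04 in knockout pools 1, 2 and 3, against 11.04, 9.14 and 11.01 in wild-type pools 1, 2 and 3, so that knockout pool 3 was low and, among wild-type pools, pool 2 was. Over all 22482 probe sets tested, the median difference from the wild-type mean was 0.10 in knockout pool 1, 0.05 in knockout pool 2 and -0.08 in knockout pool 3. Summed signals of 6 hepatocyte markers ran from 78371 to 80672 in knockout and from 78032 to 79937 in wild-type pools. Those of 10 Kupffer cell and macrophage markers ran from 9988 to 10135 against 9582 to 10983, and those of 4 neutrophil markers from 434 to 514 against 348 to 391. The 6 sinusoidal endothelial markers summed to 4107 to 4260 against 4587 to 4708, the 5 stellate cell and fibroblast markers to 7748 to 8301 against 8699 to 8850, the 4 erythroid markers to 1996 to 2470 against 1284 to 1321, and the 3 cholangiocyte markers to 139 to 165 against 144 to 157. Past the threshold, 1 of 10 macrophage, 1 of 6 endothelial and 2 of 5 stellate cell and fibroblast markers fell, against 3.87% of all 10908 genes tested. Meanwhile 2 of 4 neutrophil markers and 1 of 4 erythroid markers (Tfrc) rose, against 3.29% of all genes. By limma 0 of 6 hepatocyte and 0 of 3 cholangiocyte markers were called, with 1 and 0 at an unadjusted p below 0.05. At that unadjusted level 1159 of all 10908 genes tested were higher and 1052 lower. By mean, 3 of 10 macrophage, 1 of 6 endothelial, 1 of 5 stellate cell and fibroblast and 3 of 4 neutrophil markers were higher in knockout. Of the other 3 erythroid markers, Alas2 differed by -0.24 (adjusted p = 0.277), Slc4a1 by 0.10 and Epb42 by 0.07, beside 1.24 for Tfrc. The part of the non-overlapping sums, of the sex-linked signals and of knockout pool 1 in the results below was not tested.

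Of the 8 genes, Gclm alone rose past the threshold in knockout liver, by 1.22-fold in its brighter probe set and not in its other one. That call was lost when any single wild-type pool was left out. The other 7 genes had higher means in knockout without passing. A probe set was tested if 3 or more of the 6 arrays called it Present, and counted as changed at a Benjamini-Hochberg adjusted p below 0.05 over all tested probe sets by limma. Of the 17 member probe sets, 15 were tested, and 14 of these were called Present on all 6 arrays. The 15 covered all 8 genes. Among them 1 was called higher and 0 were called lower, against 2.68% and 3.0% of all tested probe sets, or 5.68% in either direction. At an unadjusted p below 0.05 there were 4 of 15, all higher in knockout, against 17.7% of all probe sets. All 15 had a higher mean in knockout, as did 54.4% of all tested probe sets, and the 15 share genes and arrays, so they are not 15 separate observations.

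**Figure D1:**
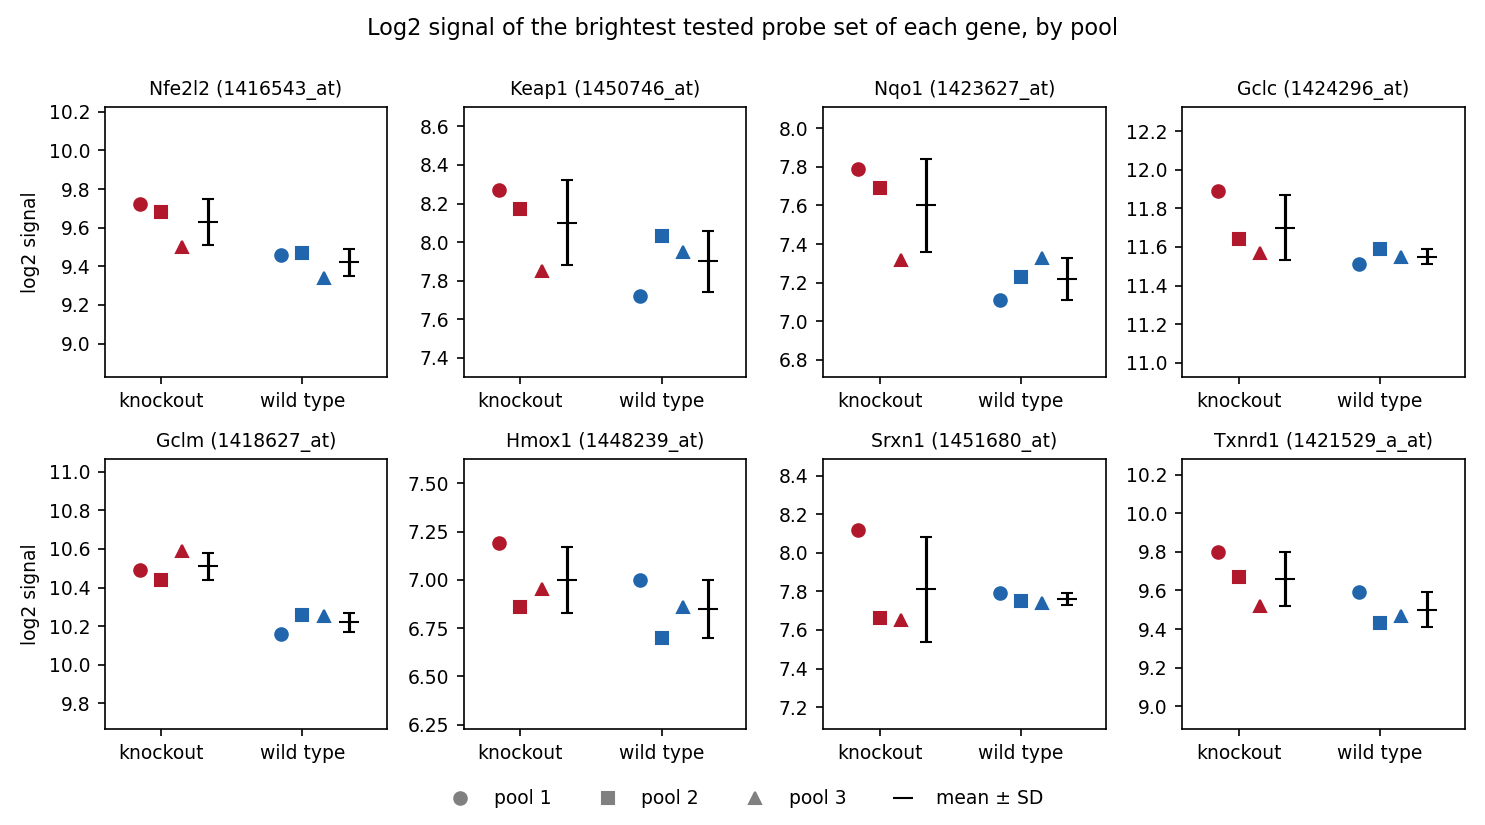
Log2 signal (y axis, each panel spanning the same range of log2 units) of the brightest tested probe set of each gene in the 3 knockout pools (red, left) and the 3 wild-type pools (blue, right), with marker shape for the pool number and black bars for mean ± SD (n = 3 pools). The groups lie apart in Gclm and Nfe2l2 and overlap in the other 6 genes, and knockout pool 1 is the highest of the 6 pools in every panel but that of Gclm.

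Nfe2l2 encodes NRF2 itself. Its brighter probe set (1416543_at) read 9.72, 9.68 and 9.50 in knockout pools 1, 2 and 3, against 9.46, 9.47 and 9.34 in wild-type pools 1, 2 and 3. Every knockout pool was above every wild-type pool, as it was for 11.6% of all tested probe sets, but knockout pool 3 was only just above wild-type pools 1 and 2. The difference was 0.21 on the log2 scale (SE 0.08, 95% interval 0.03 to 0.39, adjusted p = 0.184), with an exact two-sided permutation p of 0.1, the smallest that 3 pools against 3 allow. The dimmer probe set (1457117_at) read 6.25, 5.76 and 5.36 in knockout and 5.52, 5.63 and 5.19 in wild type, so that the groups overlapped (difference 0.34, SE 0.20, adjusted p = 0.396). Without knockout pool 3 the brighter probe set passed, with a difference of 0.28 and an adjusted p of 0.0182. That fit called 3010 of the 22482 tested probe sets, 2055 of them higher, against 1277 and 602 with all pools. Without knockout pool 1 the difference of the brighter probe set was 0.17 (adjusted p = 0.419). The dimmer probe set differed by 0.56 without knockout pool 3 (adjusted p = 0.0578), by 0.11 without knockout pool 1 (adjusted p = 0.868) and by 0.21 without wild-type pool 3 (adjusted p = 0.734).

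Keap1 encodes the adaptor that marks NRF2 for degradation. Probe set 1450746_at read 8.27, 8.17 and 7.85 in knockout pools, against 7.72, 8.03 and 7.95 in wild-type pools. Knockout pools 1 and 2 were above all wild-type pools and knockout pool 3 lay within them, and the difference was 0.20 (SE 0.12, 95% interval -0.05 to 0.45, adjusted p = 0.419). Probe set 1450747_at read 6.79, 6.68 and 6.43 in knockout and 6.20, 6.39 and 6.38 in wild type, without overlap, with a difference of 0.31 (SE 0.13, adjusted p = 0.198). Both probe sets thus had the factor's inhibitor higher on average in knockout liver, neither past the threshold. Calls rose array-wide without knockout pool 3, to 3010 of 22482 probe sets from 1277. In that fit both Keap1 probe sets passed, with differences of 0.32 and 0.41 and adjusted p of 0.047 and 0.0291. Their differences were 0.11 and 0.23 without knockout pool 1 (adjusted p of 0.77 and 0.473), and without wild-type pool 1 they were 0.11 and 0.25 (adjusted p of 0.819 and 0.553).

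Nqo1 encodes NAD(P)H quinone dehydrogenase 1, which reduces quinones to hydroquinones and is a widely used readout of NRF2. Its probe set read 7.79, 7.69 and 7.32 in knockout pools, against 7.11, 7.23 and 7.33 in wild-type pools. Knockout pools 1 and 2 were above every wild-type pool, while knockout pool 3 was level with wild-type pool 3. The mean was 7.60 ± 0.24 in knockout and 7.22 ± 0.11 in wild type (SD, n = 3 pools each), a difference of 0.38 (SE 0.12, 95% interval 0.11 to 0.64), or 1.30-fold. This was the largest difference among the brightest probe sets of the 8 genes, and it did not pass over all probe sets (adjusted p = 0.0965). The call changed with the setting: the adjusted p was 0.0464 with quantile normalization, 0.0342 with arrays centred on the tested probe sets, 0.0399 with the Xist signal as a covariate and 0.00457 without knockout pool 3. Each of these settings also called more probe sets array-wide than the main one. The difference was 0.28 without knockout pool 1 (adjusted p = 0.298). Over all 16 alternatives the difference ran from 0.28 to 0.51 and the adjusted p from 0.00457 to 0.394.

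Gclc and Gclm encode the catalytic and the modifier subunit of glutamate-cysteine ligase, the rate-limiting enzyme of glutathione synthesis. Gclm (1418627_at) read 10.49, 10.44 and 10.59 in knockout pools, against 10.16, 10.26 and 10.25 in wild-type pools. All knockout pools were above all wild-type pools, and knockout pool 3, the lowest knockout pool in 12 of the 15 tested probe sets of the 8 genes, was the highest here. The mean was 10.51 ± 0.07 in knockout and 10.22 ± 0.05 in wild type (SD, n = 3 pools each), a rise of 0.28 (SE 0.07, 95% interval 0.14 to 0.43, adjusted p = 0.0221). Without knockout pool 1 the rise was 0.29 (SE 0.08, adjusted p = 0.0396). The call was lost without wild-type pool 1 (0.25, adjusted p = 0.138), wild-type pool 2 (0.30, adjusted p = 0.0566) or wild-type pool 3 (0.29, adjusted p = 0.062), and with arrays centred on the tested probe sets (0.27, adjusted p = 0.0577). Over all 16 alternatives the adjusted p ran from 0.00929 to 0.166, the highest without the intensity trend of the variance model.

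The other tested probe set of Gclm (1439050_at) read 9.45, 9.35 and 9.17 in knockout and 9.20, 9.16 and 9.09 in wild type. Its groups overlapped and it was not called (difference 0.17, SE 0.09, adjusted p = 0.334), except without knockout pool 3 (0.25, adjusted p = 0.035), a fit with more calls array-wide. Its difference was 0.11 without knockout pool 1 (adjusted p = 0.678). The log2 ratio of the called to the other probe set averaged 1.19 ± 0.20 in knockout and 1.07 ± 0.10 in wild-type pools (SD, n = 3 each, exact two-sided permutation p = 0.6). The probe sets therefore differed in call, but their difference was not itself larger than the spread between pools. Averaged over both probe sets, Gclm was higher by 0.23 (SE 0.07, adjusted p = 0.0536).

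Gclc (1424296_at) read 11.89, 11.64 and 11.57 in knockout pools, against 11.51, 11.59 and 11.55 in wild-type pools. Knockout pools 1 and 2 were above the wild-type range, knockout pool 3 lay inside it, and the difference was 0.15 (SE 0.07, 95% interval 0.00 to 0.30, adjusted p = 0.292). The other probe set (1455959_s_at) gave 11.23, 10.99 and 10.86 in knockout and 10.95, 10.84 and 10.95 in wild type (difference 0.11, adjusted p = 0.52). Without knockout pool 1 the differences were 0.05 and 0.01, with adjusted p of 0.788 and 0.971. The log2 ratio of Gclm to Gclc on the same array was -1.40, -1.20 and -0.98 in knockout pools and -1.35, -1.33 and -1.31 in wild-type pools. Those groups overlapped (exact two-sided permutation p = 0.4), so the 2 subunits were not shown to differ in their response.

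Hmox1 encodes haem oxygenase 1, which opens the haem ring and is abundant in macrophages that clear red cells. It read 7.19, 6.86 and 6.95 in knockout pools, against 7.0, 6.70 and 6.86 in wild-type pools. The groups overlapped and the difference was 0.15 (SE 0.12, 95% interval -0.11 to 0.40, adjusted p = 0.593). It was 0.05 without knockout pool 1 (adjusted p = 0.913) and 0.07 without wild-type pool 2 (adjusted p = 0.888). Marco, a macrophage receptor and the one called gene among the 10 Kupffer cell and macrophage markers, fell by 0.44 (adjusted p = 0.0215). Its other tested probe set was not called. The median log2 fold change of the 10 markers was -0.02, and 3 of them had higher means in knockout. A link of these markers to Hmox1 was not tested.

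Srxn1 encodes sulfiredoxin, which restores over-oxidised peroxiredoxins, and had 4 tested probe sets. The brightest (1451680_at) read 8.12, 7.66 and 7.65 in knockout pools, against 7.79, 7.75 and 7.74 in wild-type pools. Knockout pool 1 was above every wild-type pool and the other 2 knockout pools were below every one of them, so that the mean difference was 0.05 (SE 0.12, 95% interval -0.21 to 0.30, adjusted p = 0.891). Probe set 1426875_s_at was also highest in knockout pool 1, with 7.84, 7.57 and 7.45 in knockout and 7.55, 7.51 and 7.53 in wild type (difference 0.09, adjusted p = 0.744). Probe set 1425351_at read 5.99, 5.37 and 5.29 in knockout and 5.34, 5.21 and 5.63 in wild type (difference 0.16, adjusted p = 0.741). Without knockout pool 1 the 3 differences were -0.11, -0.02 and -0.06. The dimmest probe set (1419942_at), called Present in 2 of 3 knockout and 1 of 3 wild-type pools, read 4.39, 4.79 and 4.64 in knockout and 4.33, 4.36 and 4.21 in wild type (difference 0.31, SE 0.22, adjusted p = 0.518).

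Txnrd1 encodes the cytosolic thioredoxin reductase, a selenoprotein that keeps thioredoxin reduced with NADPH. Probe set 1421529_a_at read 9.80, 9.67 and 9.52 in knockout pools, against 9.59, 9.43 and 9.47 in wild-type pools. The groups overlapped and the difference was 0.16 (SE 0.09, 95% interval -0.02 to 0.35, adjusted p = 0.348). It passed without knockout pool 3 (0.24, adjusted p = 0.0495), a fit with more calls array-wide, and was 0.10 without knockout pool 1 (adjusted p = 0.712). The other 2 probe sets were not tested. Probe set 1424486_a_at was called Present in 0 of 3 knockout and 1 of 3 wild-type pools, and read 5.59, 5.74 and 5.60 against 6.12, 5.83 and 5.86. Every knockout pool was thus below every wild-type pool (difference -0.29, exact two-sided permutation p = 0.1), the opposite direction to the tested probe sets. Probe set 1424487_x_at was called Present in 1 of 3 pools of each genotype and read 5.75, 5.53 and 5.81 against 5.69, 5.52 and 5.64.

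**Figure D2:**
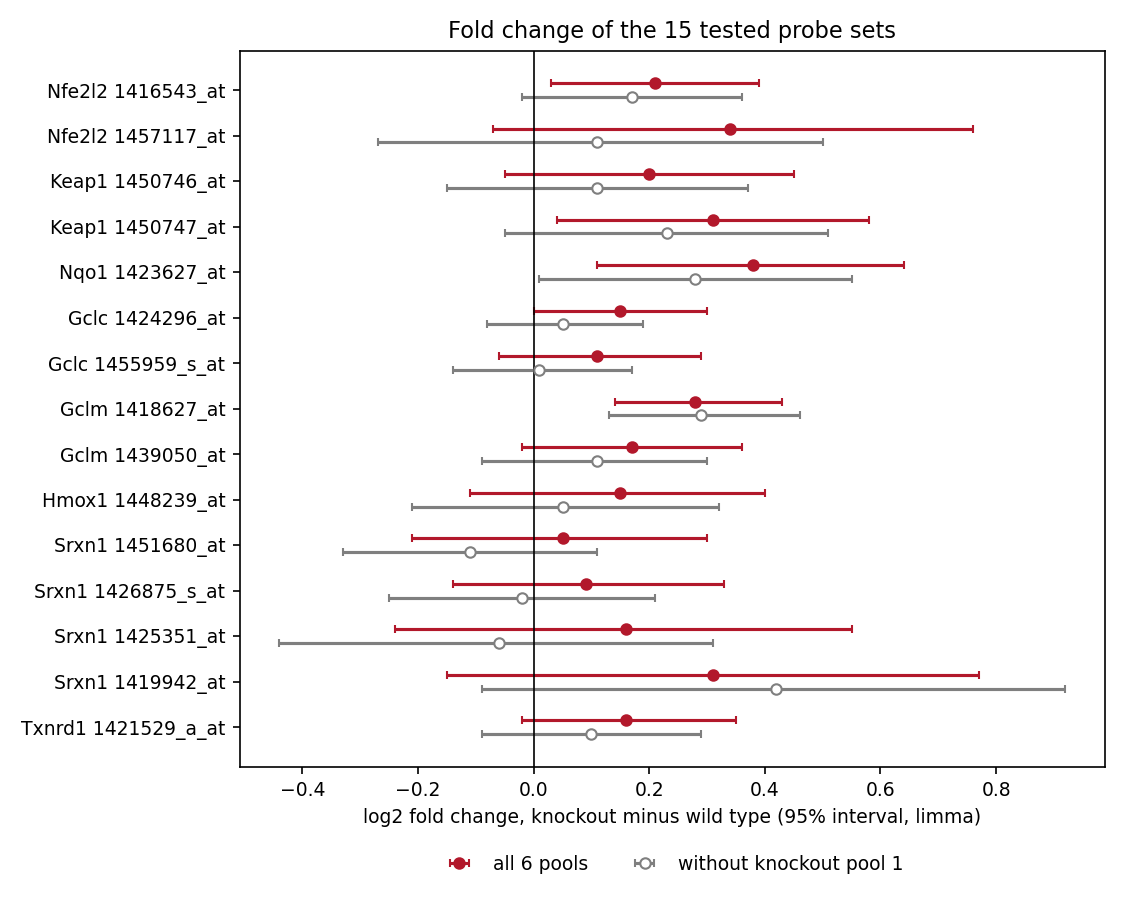
Log2 fold change, knockout minus wild type (x axis), of the 15 tested probe sets of the 8 genes (y axis), with 95% intervals from limma, for all 6 pools (filled red) and without knockout pool 1 (open grey). All 15 points lie above 0 with all pools, 3 points of Srxn1 lie below 0 without knockout pool 1, and the point of Gclm 1418627_at stays between 0.28 and 0.29.

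The 3 knockout pools also differed among themselves. Knockout pool 1 gave the highest of the 6 values in 13 of the 15 tested probe sets, against 37.5% of all tested probe sets, and knockout pool 3 the lowest of the 3 knockout values in 12 of 15, against 67.8%. The median difference of the 15 probe sets from the wild-type mean was 0.33 in knockout pool 1, 0.20 in knockout pool 2 and 0.02 in knockout pool 3, beside the array-wide medians of 0.10, 0.05 and -0.08. In knockout pool 1 all 15 were above the wild-type mean, against 66.6% of all tested probe sets. In knockout pool 2 13 were, against 59.6%, and in knockout pool 3 9 were, against 34.6%. Wild-type pools 1 and 2 also had 9 each, against 49.6% and 50.7%. Without knockout pool 1, 12 of the 15 were still higher in knockout, against 46.2% of all probe sets, and Gclm 1418627_at was the 1 called, against 4.71% of all probe sets.

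**Figure D3:**
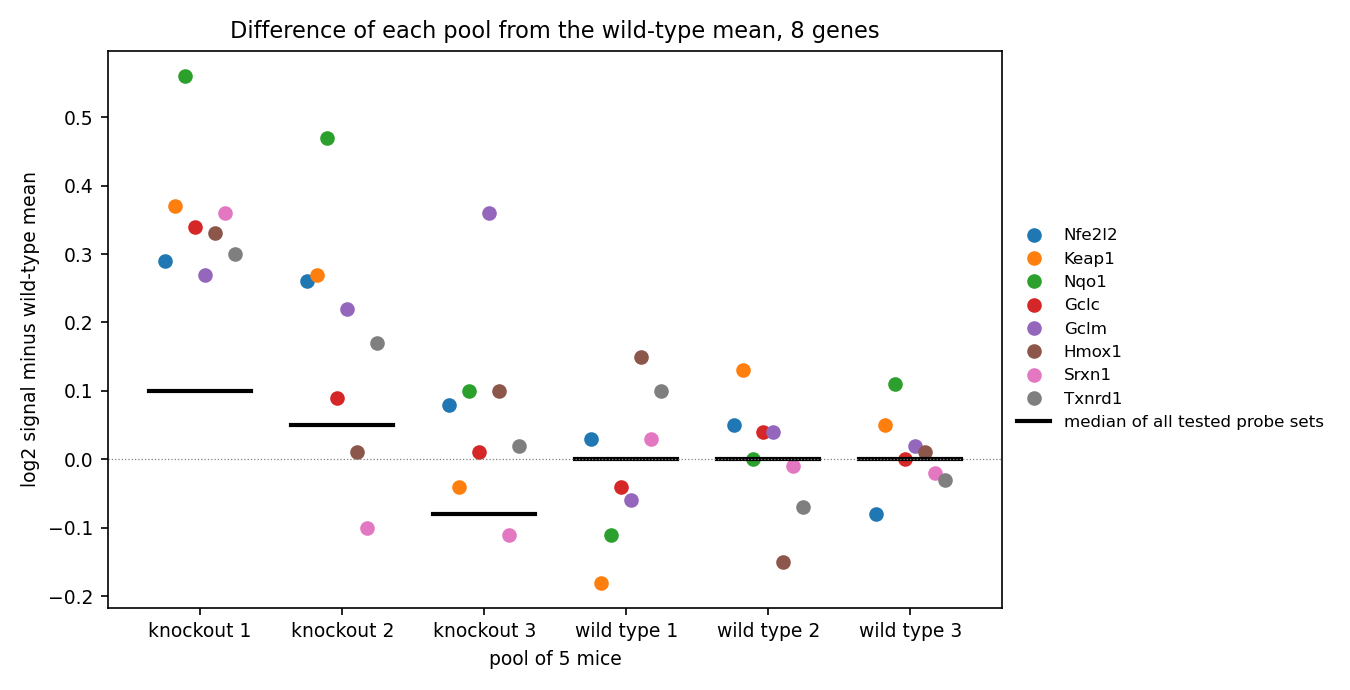
Difference of each pool's log2 signal from the wild-type mean (y axis) for the brightest tested probe set of the 8 genes (colours) in knockout pools 1 to 3 and wild-type pools 1 to 3 (x axis), with black bars for the median of all 22482 tested probe sets. In knockout pool 1 the 8 genes lie between 0.27 and 0.56, all above the bar at 0.10, while in knockout pool 3 Gclm at 0.36 stands above the 7 others, which lie between -0.11 and 0.10.

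In the authors' deposited table no member passed a corrected p of 0.05, a level that 22 probe sets reached in all. The authors' deposited table gives Gclm 1418627_at an absolute fold change of 1.22 with a p of 0.00542 and a corrected p of 0.251. For Nqo1 the authors' deposited table has 1.30, 0.0729 and 0.55 for the same 3 quantities. The authors' p lay between these for Txnrd1 1424486_a_at (0.0477), Nfe2l2 1416543_at (0.0587), Srxn1 1419942_at (0.0691) and Keap1 1450747_at (0.0696). Of these the Txnrd1 probe set, not tested here for want of Present calls, was lower in knockout.

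The genes whose 6 pool values lay closest to those of a member were found by the root mean square difference of log2 values, each gene centred on its own mean over the 6 pools. Closest to Gclm were Glrx5, Saa4 and Foxp2, with differences of 0.016, 0.03 and 0.033, where the median over all genes was 0.20. Glrx5 and Saa4 were called higher, by 0.26 (adjusted p = 0.0137) and 0.27 (adjusted p = 0.0086). Closest to Nfe2l2 were Sap30bp, Abhd13 and Mcl1 at 0.02 to 0.024, and closest to Nqo1 were Ift74, Ddx21 and Slc16a7 at 0.032 to 0.046. None of the 3 genes closest to each of Nfe2l2, Keap1, Gclc, Hmox1, Srxn1 and Txnrd1 was called, and of those closest to Nqo1 Slc16a7 was (0.37, adjusted p = 0.0416). The 3 closest genes of Keap1 were Xpa, Dclk3 and Kif5b, those of Gclc Ppp4r1, Eif4b and Maml1, those of Hmox1 Commd9, Zfp131 and Ano1, those of Srxn1 Zbtb24, Slc9a9 and Gpalpp1, and those of Txnrd1 Wipi2, Rnf4 and Rnf10. These are descriptions over 6 arrays that share the genotype split and the differences in overall level. The genes were picked for values like those of the members, so their fold changes and calls give no separate support.

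The wider set of NRF2-related genes moved in both directions. Of 95 listed genes outside the 8, 78 were tested with 1 probe set each, and 9 were higher and 9 lower, against 3.29% and 3.87% of all 10908 genes tested. The lists were chosen with earlier results of these data known. Their counts beside the shares of all genes, here and list by list below, are therefore descriptions and no test of these genes. The median log2 fold change of the 78 was 0.04, that of the 8 genes was 0.18 and that of all genes was 0.02. Of the 18 changed genes, 8 kept their call whichever single pool was left out. The even split depended on the scaling. With arrays centred on the median of all probe sets, 13 were higher and 5 lower, 14 of the 18 calls were kept, and those of Gstm5, Idh1, Sesn1 and Sesn3 were lost (adjusted p of 0.107, 0.16, 0.0918 and 0.144). With arrays centred on the tested probe sets 7 were higher and 8 lower, and the calls of Cth, Gstp1 and Idh1 were lost (adjusted p of 0.065, 0.09 and 0.127). Without wild-type pool 3 there were 13 higher and 6 lower, and without knockout pool 3 there were 17 and 9.

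Among 12 tested regulators and partners of NRF2, Bach1 alone rose and 0 fell by limma, with 2 higher and 0 lower at an unadjusted p below 0.05. Of all genes tested, 3.29% rose and 3.87% fell, and 1159 and 1052 of 10908 were higher and lower at the unadjusted level. Bach1 encodes a repressor that competes with NRF2 for the same sites. It read 9.52, 9.51 and 9.27 in knockout pools, against 9.03, 9.04 and 9.09 in wild-type pools, without overlap (0.38, SE 0.09, adjusted p = 0.0151). Its call was lost without knockout pool 1 or 2 or wild-type pool 1 or 2, with adjusted p of up to 0.0941, and its other tested probe set was not called. Mafg, a small MAF partner, differed by 0.24 (adjusted p = 0.14) and Cul3 by 0.16 (adjusted p = 0.381).

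Of 12 tested genes of glutathione synthesis and use, 2 rose and 1 fell, against 3.29% and 3.87% of all genes tested. Glrx, which encodes glutaredoxin 1, rose by 0.54 (SE 0.09, adjusted p = 0.00173), with 10.16 ± 0.21 in knockout and 9.62 ± 0.01 in wild-type pools (SD, n = 3 each), and so did its other tested probe set. Cth, the cystathionine lyase that makes cysteine, rose by 0.31 (SE 0.08, adjusted p = 0.0341). Ggct, which acts on gamma-glutamyl peptides, fell by 0.49 (SE 0.11, adjusted p = 0.0154). The enzyme of the step after glutamate-cysteine ligase, Gss, differed by -0.05 (adjusted p = 0.829) and glutathione reductase, Gsr, by 0.08 (adjusted p = 0.736). The call of Cth was lost without any of knockout pools 1 and 2 and wild-type pools 1 and 2 (adjusted p of up to 0.155) and that of Ggct without wild-type pool 1 (0.0872).

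In the thioredoxin and peroxiredoxin list, where Srxn1 and Txnrd1 act, 3 of 11 tested genes fell and 0 rose by limma, and the counts were the same at an unadjusted p below 0.05. Beside these, 3.87% of all genes tested fell and 3.29% rose, and 1052 and 1159 of 10908 were lower and higher at the unadjusted level. Prdx4, the peroxiredoxin of the endoplasmic reticulum, fell by 0.32 (SE 0.06, adjusted p = 0.00225) in its brightest probe set, while its other 2 tested probe sets were not called. Sesn1 and Sesn3, which encode sestrins, fell by 0.40 (adjusted p = 0.0288) and 0.33 (adjusted p = 0.0439). Of the 3 other tested probe sets of Sesn1, 2 were called, also lower, and the 1 other of Sesn3 was not called. Each sestrin lost its call with median centring over all probe sets and in 4 of the 6 fits that left out 1 pool, Sesn1 in all but those without knockout pool 3 or wild-type pool 2 (adjusted p of up to 0.201) and Sesn3 in all but those without knockout pool 2 or 3 (up to 0.234). Txn1, the cytosolic thioredoxin that Txnrd1 reduces, read 12.30, 12.28 and 12.24 in knockout and 12.30, 12.28 and 12.23 in wild type, and the mitochondrial reductase Txnrd2 differed by 0.01 (adjusted p = 0.983).

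By its brightest probe set, no gene of superoxide and peroxide removal (4 tested) or of haem breakdown and iron storage (6 tested) was called by limma, with 2 and 1 higher and 0 lower at an unadjusted p below 0.05. Over all genes tested, 3.29% rose and 3.87% fell, and 1159 and 1052 of 10908 were higher and lower at the unadjusted level. Sod2, Sod1 and Cat differed by 0.19 (adjusted p = 0.0608), 0.20 (adjusted p = 0.103) and 0.07 (adjusted p = 0.634). For ferritin heavy chain, Fth1, the brightest probe set differed by 0.06 (adjusted p = 0.567), but 1 other probe set was called higher. Blvrb, Blvra and Slc40a1 differed by 0.22, -0.13 and -0.07, with adjusted p of 0.123, 0.513 and 0.535.

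Of 6 tested genes of NADPH supply, 3 fell and 0 rose by limma, with 4 lower and 0 higher at an unadjusted p below 0.05, and the median was -0.23. Among all genes tested, 3.87% fell and 3.29% rose, and 1052 and 1159 of 10908 were lower and higher at the unadjusted level. Tkt, the transketolase of the pentose phosphate pathway, fell by 0.47 (SE 0.08, adjusted p = 0.00172), Pgd fell by 0.59 (SE 0.11, adjusted p = 0.00363) and the isocitrate dehydrogenase Idh1 fell by 0.20 (SE 0.05, adjusted p = 0.0288). The 1 other tested probe set of Tkt and the 3 others of Pgd were also called lower, and the 1 other of Idh1 was not called. Malic enzyme, Me1, read 9.62, 9.38 and 9.50 in knockout pools, against 9.87, 9.66 and 9.77 in wild-type pools (adjusted p = 0.0868). Taldo1, the transaldolase, and the mitochondrial isocitrate dehydrogenase Idh2 differed by -0.12 (adjusted p = 0.438) and 0.17 (adjusted p = 0.325). Idh1 lost its call under either centring of the arrays (differences of -0.14 and -0.21) and without knockout pool 1 or 2 or wild-type pool 1 or 2, with adjusted p of up to 0.182, and Tkt and Pgd kept theirs.

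Of 27 tested enzymes and transporters of conjugation and reduction, 6 rose and 2 fell, against 3.29% and 3.87% of all genes tested. The rises were those of the glutathione transferase Gsta2 by 1.17 (SE 0.15), the carbonyl reductase Cbr1 by 0.51 (SE 0.09), the epoxide hydrolase Ephx1 by 0.47 (SE 0.07), the aldehyde oxidase Aox1 by 0.45 (SE 0.10), Entpd5 by 0.31 (SE 0.08) and the transferase Gstp1 by 0.24 (SE 0.04), with adjusted p from 5.7e-05 to 0.0204. Of the 4 other tested probe sets of Entpd5, 1 was called, also higher. Gstm5 fell by 0.40 (adjusted p = 0.0412) and Osgin1 fell by 0.35 (adjusted p = 0.00636). Gsta2, Gstp1 and Gstm5 belong to families of closely related sequences, so their probe sets may also bind relatives. Calls were lost without wild-type pool 1 in Aox1 (adjusted p = 0.0568), without wild-type pool 2 in Osgin1 (0.0595), in 4 of the 6 fits in Entpd5 (knockout pool 1 or 2 or wild-type pool 1 or 2 left out, up to 0.118) and in 4 in Gstm5 (knockout pool 2 or any wild-type pool left out, up to 0.204).

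**Figure D4:**
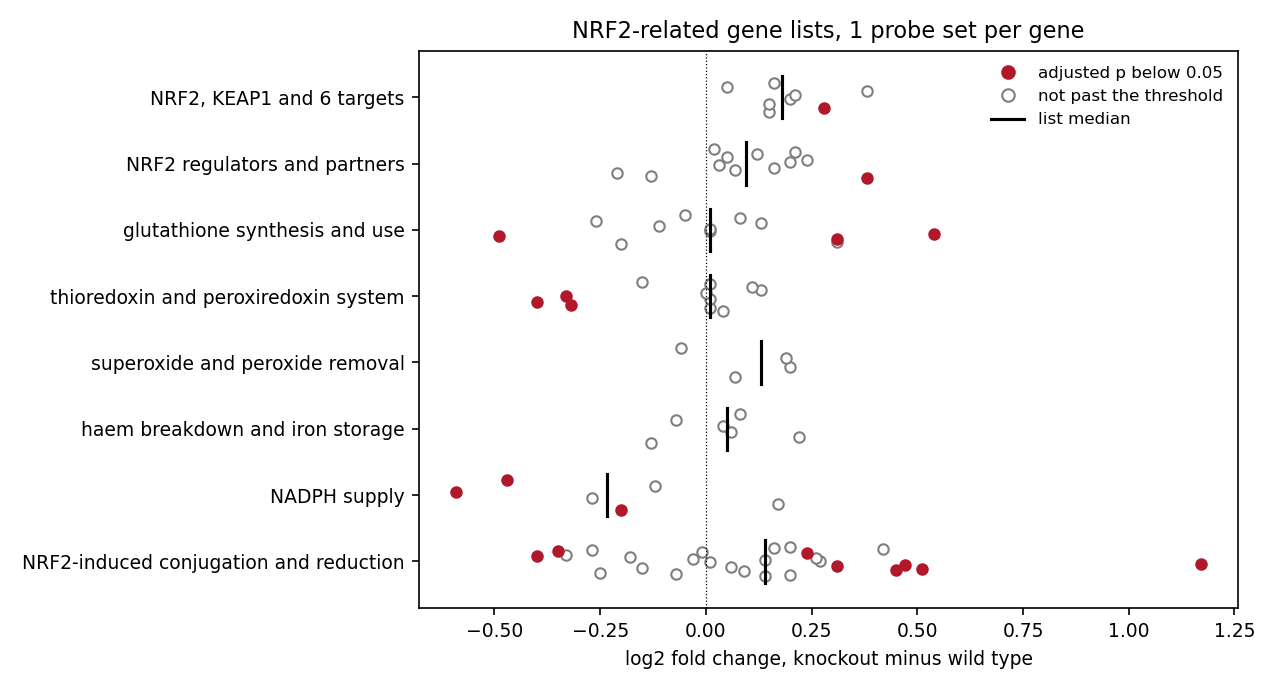
Log2 fold change, knockout minus wild type (x axis), of each tested gene in the 8 genes and the 7 related lists (y axis), with 1 probe set per gene, red for an adjusted p below 0.05, open for the rest and a black bar for the list median. The 8 genes lie between 0.05 and 0.38 with 1 red point, and the NADPH supply list has its median at -0.23.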

How the data were processed

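Pooled liver RNA (5 mice per array, 3 arrays per genotype) was hybridised to Affymetrix arrays. The deposited log2 values are signals made with MAS5, per the submitters' processing notes, and its version and scaling are not stated there. Beside them stand the deposited detection calls, detection p-values and the authors' p-value, corrected p-value and absolute fold change per probe set. The series matrix repeats the log2 values (largest difference 4.91e-07). Gene symbols came from the platform annotation: 34958 probe sets had 1 symbol, 932 several and 9211 none.

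Control probe sets (64) and those Present on fewer than 3 of the 6 arrays were dropped. Knockout was compared with wild type on the deposited log2 values, with no further normalization, with R 4.3.3 and limma 3.58.1 (lmFit and eBayes, trend = TRUE), and p-values were adjusted by Benjamini-Hochberg over the 22482 probe sets left. For gene lists the brightest tested probe set stood for a gene, _x_at last. Named genes were all members, every called gene of each list (or 3 of smallest p where none was called) and the 3 genes most like each member; Gss, Gsr, Mafg, Cul3, Me1, Txn1, Txnrd2, Fth1, Taldo1, Idh2, Marco and the erythroid markers were added after their values were seen. Members and lists were chosen with earlier results of these data known. Alternatives changed the log scale, detection filter, normalization, variance model, block, test, covariate or the pools used. The fit was tested on simulated data. The main fit did not pair the arrays by pool number. Deviations of same-numbered pools from their group means correlated at -0.03, -0.01 and -0.08, which shows no sign of pairing but cannot exclude shared handling. Precision is limited by there being 6 arrays.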

Additional observations from a re-analysis of the deposited data

How the results depend on the processing

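The main settings gave 1277 changed probe sets, 1 changed member probe set and 18 changed genes of the related lists. Without the intensity trend these were 378, 0 and 2, and with a plain two-sample test with equal variances 30, 0 and 1; at an unadjusted p below 0.05 there were 4 and 1 member probe sets. Leaving out 1 pool gave 639 to 3010 changed probe sets, 0 to 7 members and 9 to 26 genes of the lists, the lowest without wild-type pool 1 (also 0 members without wild-type pools 2 and 3, with 3 or 4 at an unadjusted p below 0.05) and the highest without knockout pool 3. Quantile normalization gave 2 member probe sets, Gclm 1418627_at and Nqo1, as did the Xist signal as a covariate, which was chosen after seeing the data. Centring on the medians of the tested probe sets, also chosen after seeing the data, gave 1, which was Nqo1 and not Gclm. Median centring over all probe sets changed the split of calls to 881 higher and 480 lower, from 602 and 675. Log2 fold changes of the tested member probe sets turned negative in 3 cases, all Srxn1 without knockout pool 1. With single pools left out these 3 probe sets ran from -0.11 to 0.13, from -0.02 to 0.18 and from -0.06 to 0.29, highest without knockout pool 3. Without the detection filter 16 of 17 member probe sets had higher means in knockout, and 1, Txnrd1 1424486_a_at, had a lower one. The pool number as a replicate block gave 1370 probe sets, 1 member and 19 genes of the lists; of the calls among the member probe sets and the 18 list genes it lost 1, that of Sesn3 (adjusted p = 0.0513). The cause of these differences was not tested. Values near background, such as those of Srxn1 1419942_at, are less precise.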
